A study of Rattus norvegicus with 6 samples.

Results

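The genes described here encode the proteins of the mitochondrial ribosome, taken as every gene on the array whose rat RefSeq symbol starts with Mrpl (large subunit) or Mrps (small subunit). There were 66 such genes among the 15168 named genes of the array, 42 with an Mrpl and 24 with an Mrps symbol, and each is represented by its brightest probe. mRNA was measured on 6 single-colour Agilent arrays, 1 for each sample of hippocampal tissue from male Sprague Dawley (SD) rats. The AD group (n = 3) had been given Aβ1–42 oligomers by intracerebroventricular injection, and the Sham group (n = 3) had been given the vehicle in both lateral ventricles through a cannula. The study's methods call the animals adult. AD here is therefore an injection model in which no transgene is described, and the time from injection to dissection is not given in the sources used here. The labels do not tie a sample to an animal, and the p-values therefore measure the spread between these tissue samples, which may be partly technical. The comparison asks how hippocampal mRNA levels differ once the peptide has been given.

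Mitochondria keep a small genome whose few messenger RNAs all encode subunits of the respiratory chain and of ATP synthase, and a ribosome of their own translates them. The RNAs of this ribosome come from the mitochondrial genome, whereas each of its proteins is made from a nuclear gene, translated in the cytosol and imported. One class of these proteins has relatives in bacterial ribosomes, and another is found in mitochondria only. Neurons draw much of their ATP from the respiratory chain, and inherited defects of mitochondrial ribosomal proteins are known to impair brain, heart and liver.

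Levels are given as log2 processed signal relative to the array's 75th percentile, so that 0 is the signal of the probe at that percentile and 1 is a doubling of it. The signal of all 66 genes was well above background on every array, and 45 of them lay above the 75th percentile on average. The 75th percentile signal was 795 to 932 on the AD arrays and 429 to 755 on the Sham arrays, with Sham replicate 3 the dimmest. Sham replicate 3 was also scanned apart from the others on another day, and the AD arrays were scanned together, so that scan and group cannot be told apart. The excitatory neuron markers Neurod6, Fibcd1 and Prox1 and 5 further markers of hippocampal excitatory cells were likewise well above background on each array. Grp, from the same list, was so on 5 arrays and was not tested, because it had no unflagged value on the remaining array.

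Of the 66 mitoribosomal genes, 17 were lower in AD and 0 passed the test as higher. The lowered genes came from both subunits and included Mrpl2, Mrpl18, Mrpl41, Mrpl44 and Mrps31. With 75th percentile scaling, the 17 calls at a limma adjusted p under 0.05 made up 25.8% of the members, against 8.40% of the 22766 probes tested. The 0 higher calls stood against 4.15% of all probes, and 1 member was higher at an unadjusted p under 0.05. The 17 called genes stood at 61.6% to 78.7% of their Sham level, so no change reached 2-fold. The log2 change was negative for 59 of the 66 genes (89.4%), against 51.3% of all probes and 71.3% of named genes above the 75th percentile. The median log2 change over the 66 was -0.26 (quartiles -0.43 and -0.17), beside -0.01 over all tested probes and -0.05 over the 11940 named genes tested with 1 probe each. For 49 of the 66 genes (74.2%) every AD array was below every Sham array, against 23.4% of all probes. Above the 75th percentile, where 45 of the members lay, that order held for 86.7% of members and 47.0% of named genes. The opposite order, every AD array above every Sham array, was found for 3 of the 66, against 15.6% of all probes.

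The members' median was of like size on the 3 AD arrays. Relative to each gene's Sham mean, the median member was at -0.28, -0.24 and -0.29 on the AD arrays in replicate order. It was at -0.06, -0.02 and 0.08 on the Sham arrays. The median of all tested probes stayed between -0.04 and 0.06 on the 6 arrays, highest on Sham replicate 3 as it was for the members.

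Quantile scaling, which gives every array the same distribution of signals, left a smaller shift in the same direction. It called 11 of the 66 lower (16.7%), against 6.87% of all probes, and 0 higher, against 4.26%, with 1 member higher at an unadjusted p under 0.05. All 11 were among the 17 called with 75th percentile scaling. The median log2 change was -0.20, and every AD array was below every Sham array for 37 genes (56.1%), against 21.8% of all probes. The 6 genes called only with 75th percentile scaling were Mrpl18, Mrps26, Mrpl22, Mrpl27, Mrpl13 and Mrpl36, with quantile adjusted p between 0.0522 and 0.115 in limma.

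The number of calls depended on the single arrays, while the median change did not. Without AD replicate 1, AD replicate 2, AD replicate 3, Sham replicate 1 or Sham replicate 2, limma called 0 members, and 24 to 32 were then at an unadjusted p under 0.05. Without Sham replicate 3 it called 17 (25.8%), against 10.8% of all probes lower in that fit, and 14 of them were among the 17 named above. With scan as a random block it called 0 members and 0 of all 22766 probes, and 20 members had an unadjusted p under 0.05. The median log2 change of the members was between -0.29 and -0.26 in these 7 fits.

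**Figure D1:**
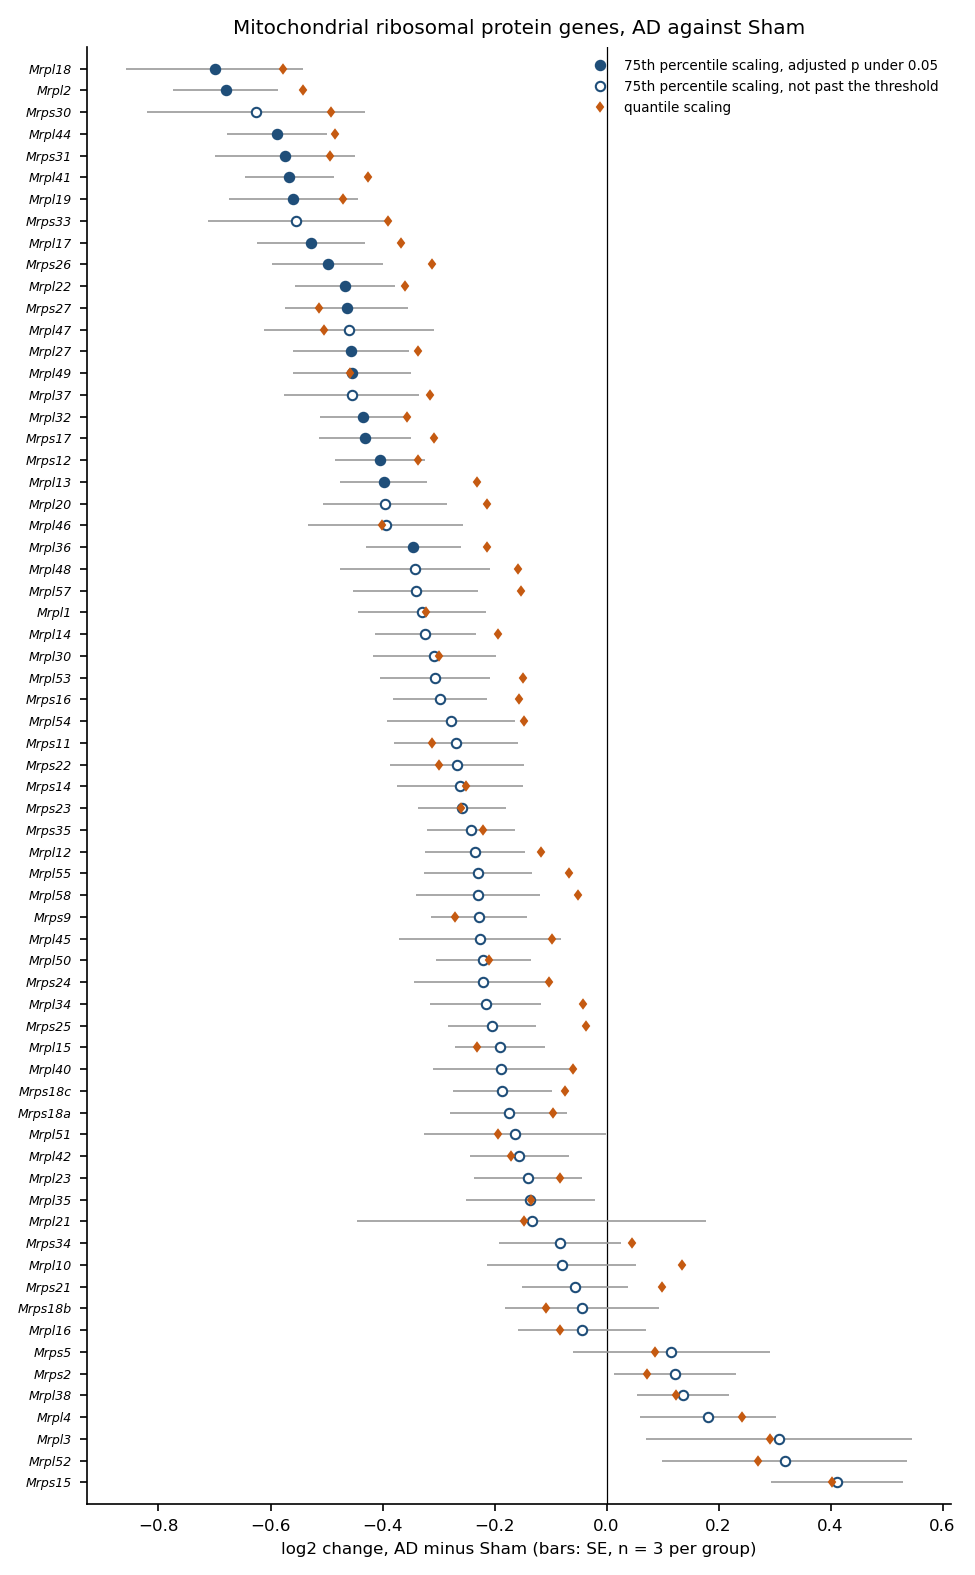
Log2 change (AD minus Sham) of each of the 66 mitoribosomal genes, ordered by size, with 75th percentile scaling (circles, bars are SE, n = 3 per group) and with quantile scaling (diamonds). Filled circles mark the 17 genes with a limma adjusted p under 0.05, all of them left of 0, and only 7 circles lie right of 0.

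The most strongly lowered transcripts of the large subunit included those of proteins with bacterial relatives at the catalytic core. Mrpl2, the counterpart of a bacterial protein beside the peptidyl transferase centre, was at 1.92, 1.88 and 1.88 on the AD arrays, replicates in order, and at 2.57, 2.46 and 2.70 on the Sham arrays. The arrays of each group lay close together and the groups were far apart, with a log2 change of -0.68 ± 0.09 (SE, n = 3 per group, limma adjusted p = 0.0198), or 62.4% of the Sham level. Mrpl18, whose bacterial relative holds the 5S ribosomal RNA, had the most negative change of all members (-0.70 ± 0.16, adjusted p = 0.0420). Its levels were 1.49, 1.21 and 1.60 in AD and 2.05, 2.39 and 1.97 in Sham, more spread than those of Mrpl2, and its quantile adjusted p was 0.0748. Mrpl19, Mrpl22, Mrpl27 and Mrpl17 also have bacterial relatives, those of Mrpl22 and Mrpl17 near the tunnel through which the new peptide leaves. Mrpl17 was at 2.46, 2.59 and 2.46 in AD and 2.95, 2.99 and 3.16 in Sham, a change of -0.53 ± 0.10 (adjusted p = 0.0278). Mrpl19 fell by 0.56, Mrpl22 by 0.47 and Mrpl27 by 0.46 on the log2 scale.

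Mrpl32, which must be cut by the m-AAA protease of the inner membrane before it enters the ribosome, had one of the tightest pairs of groups. Its levels were 0.91, 0.89 and 0.87 in AD and 1.28, 1.38 and 1.32 in Sham, a change of -0.43 ± 0.08 (limma adjusted p = 0.0273). Mrpl13 (-0.40 ± 0.08) was as tight, at 2.56, 2.65 and 2.61 in AD and 3.00, 2.99 and 3.03 in Sham. Mrpl36, a very small protein of the large subunit, was the weakest call, at -0.35 ± 0.08 with an adjusted p of 0.0496, just inside the threshold of 0.05. Just outside it was Mrpl37, with -0.45 ± 0.12 and an adjusted p of 0.0593.

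Among large-subunit proteins found only in mitochondria, Mrpl41, Mrpl44 and Mrpl49 fell. Mrpl41, also described as a partner of Bcl2, was at 2.05, 2.07 and 2.11 on the AD arrays, replicates in order, and at 2.69, 2.59 and 2.64 on the Sham arrays. Its change was -0.57 ± 0.08 (limma adjusted p = 0.0201), and its second probe gave -0.59. Mrpl44 carries a ribonuclease III-like fold, and mutations in its human counterpart cause an infantile cardiomyopathy. Its levels were 1.24, 1.28 and 1.24 in AD and 1.75, 1.82 and 1.95 in Sham, a change of -0.59 ± 0.09 (adjusted p = 0.0217) with no overlap between the groups. Mrpl49, 1 of 2 called genes below the 75th percentile, changed by -0.46 ± 0.11.

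Of the small subunit, Mrps31, Mrps26, Mrps27, Mrps17 and Mrps12 were lower. Mrps12, the counterpart of the bacterial decoding-centre protein in which streptomycin resistance arises, was at 0.82, 0.79 and 0.73 on the AD arrays, replicates in order, and at 1.24, 1.17 and 1.14 on the Sham arrays. The change was -0.40 ± 0.08 (limma adjusted p = 0.0322), with quantile scaling -0.34. Mrps17, whose bacterial relative binds ribosomal RNA directly, was at 1.76, 1.81 and 1.75 in AD and 2.14, 2.20 and 2.28 in Sham, a change of -0.43 ± 0.08. Mrps26 and Mrps31 have no bacterial relative. Mrps26 was the brightest called gene, between 3.31 and 3.46 on the AD arrays and at least 3.79 on the Sham arrays, a change of -0.50 ± 0.10. Mrps31 was at 0.85, 1.17 and 0.82 in AD and 1.45, 1.48 and 1.63 in Sham, with AD replicate 2 nearer to Sham than the other AD arrays, and changed by -0.57 ± 0.12. Mrps27, a pentatricopeptide repeat protein, was the dimmest called gene at -2.83, -2.66 and -2.95 in AD and -2.24, -2.42 and -2.39 in Sham, and changed by -0.46 ± 0.11 (adjusted p = 0.0464).

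**Figure D2:**
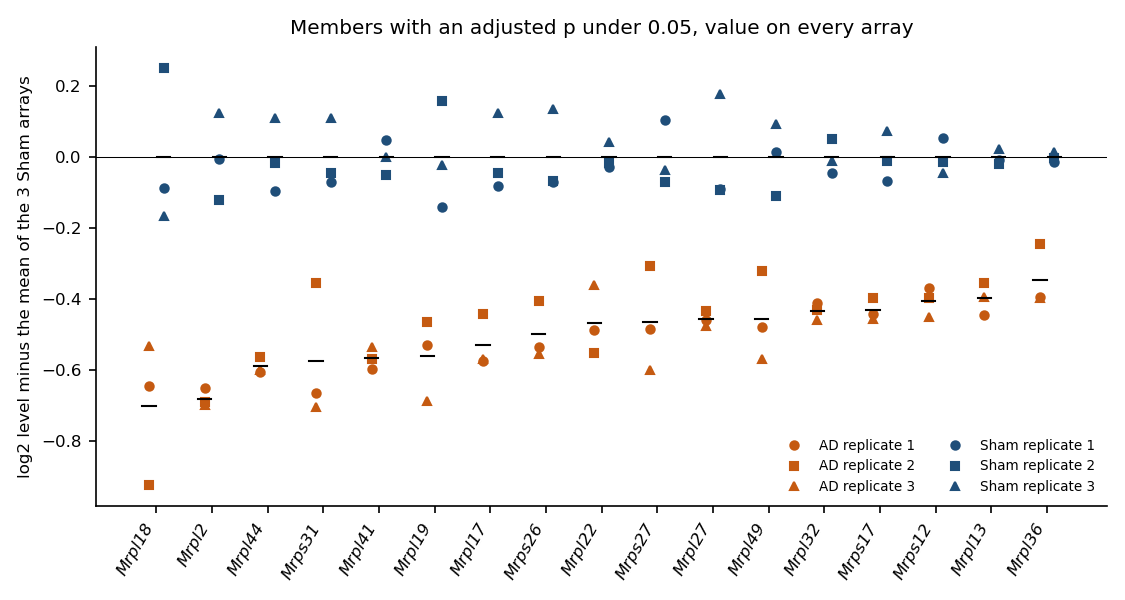
Level of each of the 17 called genes on every array, as the log2 difference from the mean of the 3 Sham arrays (orange for AD, blue for Sham, symbols for replicates, black bars for group means). AD and Sham points overlap for none of the 17, which the selection by p on these same values favours. Every AD array was below every Sham array for 74.2% of the members and 23.4% of all probes. The widest AD spread is that of Mrpl18.

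A few members had a large difference that did not pass the threshold. Mrps30, which carries a small-subunit symbol but sits in the large subunit, was at 1.99, 2.02 and 1.94 on the AD arrays, replicates in order, and at 2.87, 2.79 and 2.17 on the Sham arrays. Sham replicates 1 and 2 were far above the AD arrays and Sham replicate 3 only slightly, and the change of -0.63 ± 0.19 had a limma adjusted p of 0.0857. Without Sham replicate 3 the change was -0.85 and the adjusted p 0.0171. Mrps33 (-0.55 ± 0.16, adjusted p = 0.0698) and the dim Mrpl47 (-0.46 ± 0.15, adjusted p = 0.0976) did not overlap between groups either. The remaining members with a negative change and no call had log2 changes from -0.45 to -0.04. Mrpl21 was the most variable of all, at -1.05, 0.04 and -0.72 in AD and -0.54, -0.71 and -0.07 in Sham, so that its change of -0.13 ± 0.31 lay within the spread of either group.

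Only 7 members had a positive change, and none of these passed the test. Mrps15, whose bacterial relative binds the ribosomal RNA early in assembly, had the largest, at 0.02, -0.31 and -0.11 on the AD arrays, replicates in order, and at -0.48, -0.67 and -0.50 on the Sham arrays. All AD arrays were above all Sham arrays, with a change of 0.41 ± 0.12 and a limma adjusted p of 0.0704. Mrpl3, a core protein of the large subunit, was at -0.54, -0.48 and -0.68 in AD and -0.83, -0.43 and -1.37 in Sham, and its change of 0.31 ± 0.24 came with overlapping groups. The Sham arrays of Mrpl3 spanned almost 1 log2 unit, lowest on Sham replicate 3. Mrpl52 (0.32 ± 0.22), a dim probe, and Mrpl4 (0.18 ± 0.12) also had their lowest level on Sham replicate 3. The rest were Mrpl38 (0.14 ± 0.08), Mrps2 (0.12 ± 0.11) and Mrps5 (0.12 ± 0.18).

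Several members with well known roles had small differences. Mrpl12, the stalk protein that recruits translation factors and is also known to bind the mitochondrial RNA polymerase, was at 1.61, 1.63 and 1.68 in AD and 1.76, 1.91 and 1.96 in Sham. The groups did not overlap, but the change of -0.23 ± 0.09 had a limma adjusted p of 0.137. Mrpl58, a peptidyl-tRNA hydrolase built into the large subunit that frees stalled ribosomes, had a change of -0.23 ± 0.11 (adjusted p = 0.215). Human MRPS16, MRPS22 and MRPS34 are disease genes of combined respiratory chain deficiency. The fitted log2 changes of their rat counterparts were -0.30 ± 0.08, -0.27 ± 0.12 and -0.08 ± 0.11, with adjusted p of 0.0678, 0.188 and 0.640. Mrps34 had Sham replicate 2 below all AD arrays. The 3 Mrps18 genes encode alternative relatives of 1 bacterial protein, of which the product of Mrps18a is placed in the large subunit, and the current names count Mrps18a and Mrps18b among the proteins of mitochondria only. Their log2 changes were -0.17 ± 0.10 (Mrps18a), -0.04 ± 0.14 (Mrps18b) and -0.19 ± 0.09 (Mrps18c), none past the threshold.

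Some members rest on probes that did not agree in size. Of the 66 genes, 11 had a second probe. The 2 probes of Mrpl41 gave near-equal changes. The second probe of Mrpl2 gave -0.27 with a limma adjusted p of 0.0922, in the same direction as the brightest but smaller. That of Mrpl17 gave 0.17 (adjusted p = 0.199), opposite in sign to the -0.53 of the brightest. The probes of Mrpl50, Mrps16, Mrps21 and Mrpl40 also differed in sign, with no call on either probe. Averaging the tested probes of each gene gave 15 calls, without Mrpl17 (-0.18, adjusted p = 0.185) and Mrpl36. RefSeq lists a pseudogene or copy of the symbol for 22 members, 5 of them called (Mrpl2, Mrpl41, Mrpl17, Mrpl32 and Mrps17), whose probes could also take up transcripts of the copy.

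Both subunits and both evolutionary classes held called genes. Of 44 members placed in the large subunit, 12 were lower (27.3%), with a median log2 change of -0.31. Of 22 placed in the small subunit 5 were lower (22.7%), with a median of -0.25. By the current names, among 37 proteins with a bacterial relative 11 were lower (29.7%, median -0.26), and among 29 found only in mitochondria 6 were lower (20.7%, median -0.27). These shares stand against 8.40% of all probes, and against 19.7% of the named genes above the 75th percentile, where 45 of the 66 members lay. Differences between these classes were not tested.

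Members that were brighter on the arrays had more negative changes, as did named genes in general. The 45 members whose mean level lay above the 75th percentile had a median log2 change of -0.32, and 15 of them were called lower (33.3%). The 4463 named genes above that level had a median of -0.18, and 19.7% were called lower. The 21 dimmer members had a median of -0.16, with 2 called lower, beside 0.03 for the dimmer named genes, of which 5.54% were called lower. With quantile scaling the medians of the brighter members and of the brighter named genes were -0.21 and -0.06. Across the 66 genes, which share the same 6 arrays and are not independent, the Spearman correlation of level with change was -0.36. Across named genes it was -0.29. The part of this dependence on level in the members' result was not tested beyond these values, and the split by level was chosen after the data were seen.

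**Figure D3:**
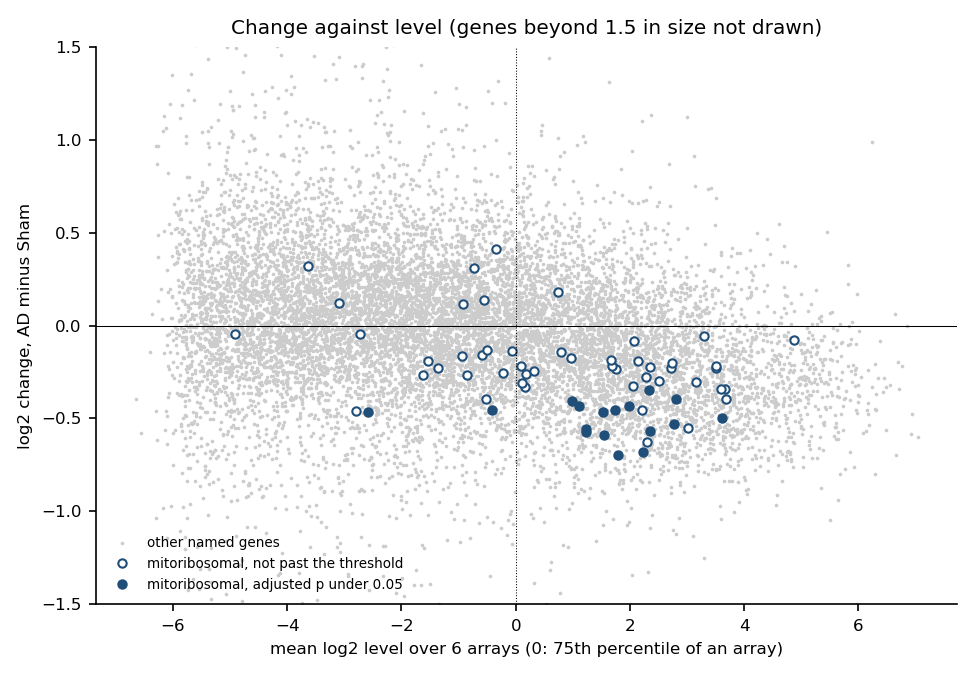
Log2 change (AD minus Sham) against mean log2 level over the 6 arrays, where 0 is the 75th percentile of an array, for mitoribosomal genes (blue) and other named genes (grey). The called members (filled) lie mostly at levels above 0, where the grey cloud also leans below 0, and 2 of them lie at levels below 0.

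Promoters of called members are shown because these genes fell together and because the factors NRF1, GABPA and YY1 are known to act at promoters of mitochondrial protein genes. The RefSeq table of the assembly GRCr8 held a promoter, 250 bases before to 50 bases after the start site, for 56 of the 66 genes and 14 of the 17 called ones. Both strands were searched for the letters GCATGCG (the core of the NRF1 site), CCGGAAG (an ETS site of the kind GABPA binds) and AAGATGG (part of the YY1 site). The NRF1 core reads almost the same on both strands, so that one site often counts on each, and 0 matches of different motifs shared bases. The 4 called genes with an NRF1 core are printed with Mrps31, which has an ETS match, 5′ to 3′ on the gene's strand, with every match in capitals.
Mrpl44, chr9:88554800-88555099, plus strand: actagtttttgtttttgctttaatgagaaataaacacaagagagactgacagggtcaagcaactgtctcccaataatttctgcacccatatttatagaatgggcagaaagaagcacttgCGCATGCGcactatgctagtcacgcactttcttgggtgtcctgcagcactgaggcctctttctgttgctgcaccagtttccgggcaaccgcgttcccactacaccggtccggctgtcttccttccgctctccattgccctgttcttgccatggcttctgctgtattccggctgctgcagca
Mrpl22, chr10:42845660-42845959, plus strand: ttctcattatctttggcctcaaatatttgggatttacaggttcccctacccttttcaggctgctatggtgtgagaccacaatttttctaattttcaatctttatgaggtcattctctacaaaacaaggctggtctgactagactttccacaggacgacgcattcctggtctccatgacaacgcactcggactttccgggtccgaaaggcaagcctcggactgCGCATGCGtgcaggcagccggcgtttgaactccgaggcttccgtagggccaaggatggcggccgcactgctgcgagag
Mrpl17, chr1:169575650-169575949, minus strand: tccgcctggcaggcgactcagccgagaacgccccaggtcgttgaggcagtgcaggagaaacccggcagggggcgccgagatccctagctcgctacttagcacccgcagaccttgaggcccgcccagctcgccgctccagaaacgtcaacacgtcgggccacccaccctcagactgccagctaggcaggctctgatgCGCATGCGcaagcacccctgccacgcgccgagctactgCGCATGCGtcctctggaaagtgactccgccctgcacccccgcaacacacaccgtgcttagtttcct
Mrpl32, chr17:55260401-55260700, plus strand: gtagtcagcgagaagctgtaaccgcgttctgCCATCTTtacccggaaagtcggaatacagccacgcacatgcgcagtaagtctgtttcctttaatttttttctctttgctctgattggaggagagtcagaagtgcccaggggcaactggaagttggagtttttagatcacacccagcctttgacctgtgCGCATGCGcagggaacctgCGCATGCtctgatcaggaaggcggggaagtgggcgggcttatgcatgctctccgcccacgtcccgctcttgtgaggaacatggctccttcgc
Mrps31, chr16:76324016-76324315, minus strand: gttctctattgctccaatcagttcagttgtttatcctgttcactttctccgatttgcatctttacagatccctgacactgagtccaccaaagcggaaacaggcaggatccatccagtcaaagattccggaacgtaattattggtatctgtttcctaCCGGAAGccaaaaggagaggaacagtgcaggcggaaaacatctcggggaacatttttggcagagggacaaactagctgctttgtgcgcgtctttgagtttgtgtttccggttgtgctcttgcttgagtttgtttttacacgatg

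The NRF1 core occurred in 6 of 56 member promoters (10.7%), against 3.33% of all promoters of that length and 5.51% of those of named genes tested. Among the printed promoters its first match began 131 bases before the start site in Mrpl44, 61 in Mrpl32, 54 in Mrpl17 and 28 in Mrpl22. The ETS letters occurred in 19 (33.9%, against 8.75% and 15.6%) and the YY1 letters in 13 (23.2%, against 7.01% and 7.56%). At least 1 of the 3 was found in 30 member promoters (53.6%), against 17.5% of all promoters and 25.5% of those of named genes tested. Of the 14 called genes with a promoter, 4 held the NRF1 core, 5 the ETS and 4 the YY1 letters. Of the 42 others, 2, 14 and 9 did. These shares were not tested, and a match describes letters in this window and shows no binding.

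Many members share their promoter region with a gene on the opposite strand. In the same table, 16 of 56 members (28.6%) had the start site of another protein-coding gene within 1000 bases, pointing away from them, against 6.86% of all protein-coding genes with a promoter. Mrpl46 and Mrps11 are such a pair themselves, with start sites 234 bases apart and log2 changes of -0.39 ± 0.14 and -0.27 ± 0.11 that did not pass the test. Of the neighbours that are no members themselves 10 were tested. Limma called 2 of the 10 lower, against 8.40% of all probes, and 0 higher, with 1 higher at an unadjusted p under 0.05. The change was negative for 7 of the 10, against 55.5% of the named genes, and their median log2 change was -0.26 (-0.18 with quantile scaling). Tcp1, a subunit of the cytosolic chaperonin opposite Mrpl18, changed by -0.62 ± 0.09, and Ndufb5, a subunit of respiratory complex I opposite Mrpl47, by -0.35 ± 0.08. The neighbours Klc4 of Mrpl2 (0.14 ± 0.17), Pnpla7 of Mrpl41 (0.28 ± 0.09) and Ppp1r10 of Mrps18b (0.25 ± 0.11) had positive changes that did not pass the test, while both Mrpl2 and Mrpl41 fell. This search for neighbours was added after the data were seen.

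Mitoribosomal proteins whose symbols start otherwise also included lowered genes. Of 6 genes listed as such and tested, 3 were lower, against 8.40% of all probes, and 0 higher, with a median log2 change of -0.34 (-0.22 with quantile scaling). The list holds Kgd4 (0.02 ± 0.13, not called), whose place in the mitoribosome was not checked here. Ptcd3, a pentatricopeptide repeat protein of the small subunit, was at 2.14, 2.25 and 2.11 in AD and 2.71, 2.99 and 2.80 in Sham, a change of -0.66 ± 0.10 (limma adjusted p = 0.0222). Chchd1 (-0.61 ± 0.11) and Aurkaip1 (-0.41 ± 0.08) fell, whereas Dap3, a GTP-binding protein of the small subunit, had -0.01 ± 0.11 (adjusted p = 0.951).

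The rest of the mitochondrial translation apparatus held some lowered genes. The counts in the 3 lists below stand against 8.40% of all probes. With quantile scaling the shares called lower were, in the order below, 7.69%, 17.6% and 8.70%, against 6.87% of all probes and 8.60% of named genes, so that the first and the last were then near these shares. Of 13 translation factors and mRNA-binding proteins 2 were lower, Mtif2, the initiation factor that brings the first tRNA (-0.83 ± 0.10), and Slirp, which stabilises mitochondrial mRNAs (-0.44 ± 0.10). Lrpprc, the partner of Slirp, had 0.34 ± 0.19 (limma adjusted p = 0.283), and the elongation factor Tufm -0.28 ± 0.08 (adjusted p = 0.0609). Of 17 aminoacyl-tRNA synthetases and amidotransferase subunits 3 were lower, Rars2 (-0.84 ± 0.09), Cars2 (-0.51 ± 0.09) and Hars2 (-0.41 ± 0.08), but the list median of -0.01 was that of all probes. Of 23 assembly factors and rRNA-modifying enzymes 3 were lower, among them the GTPase Gtpbp10 (-0.89 ± 0.11), with a median of -0.05 beside -0.01 over all probes.

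Of 14 genes whose products transcribe or maintain the mitochondrial genome 4 were lower (28.6%), against 8.40% of all probes, with a list median of -0.12. They were Ssbp1, which coats single-stranded mitochondrial DNA (-0.68 ± 0.09), the transcription factors Mterf1 (-0.65 ± 0.11) and Tefm (-0.41 ± 0.08), and Tfam, which packs and transcribes the mitochondrial genome (-0.38 ± 0.09, limma adjusted p = 0.0445). With quantile scaling 3 of the 14 were lower (21.4%, against 6.87% of all probes), without Tfam (limma adjusted p = 0.0761). Among 10 regulators of mitochondrial gene programmes 0 were lower, against 8.40% of all probes, and 1 was higher, against 4.15%. It was Ppargc1a, a coactivator known to drive mitochondrial biogenesis, at -2.22, -2.34 and -2.15 in AD and -2.64, -2.61 and -2.79 in Sham. Its change was 0.44 ± 0.10 (adjusted p = 0.0402), opposite in sign to most members, and no regulator was called under either normexp setting. The factors whose motifs were searched had -0.25 ± 0.20 (Nrf1), 0.09 ± 0.10 (Gabpa) and 0.15 ± 0.08 (Yy1), none past the threshold.

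Respiratory chain and cytosolic ribosomal genes depended more on the scaling than the members did. Of 34 nuclear respiratory chain subunits 9 were lower (26.5%), with a median log2 change of -0.32, but with quantile scaling 3 were lower (8.82%, against 6.87% of all probes) and the median was -0.11. Ndufa10 (-0.84 ± 0.19), Atp5pb (-0.66 ± 0.11) and Ndufb3 (-0.65 ± 0.12) had the largest changes. Of 50 cytosolic ribosomal protein genes 2 were lower (4%, below the 8.40% of all probes), Rpl15 (-0.77 ± 0.11) and Rpl38 (-0.42 ± 0.08). Their median was -0.20 with 75th percentile scaling and 0.01 with quantile scaling, so its sign depended on the scaling. Over the 6 other scalings and sources of values, the median of the mitoribosomal members ran from -0.32 to -0.18, and it lay below the median of all probes in each. The difference between the member median and that of all probes was -0.25 as reported, -0.20 with quantile scaling and -0.12 with normexp and the 75th percentile, a setting that moved the median of all probes to -0.15. Median scaling and the percentile over detected probes shift all changes alike, so they could only leave this difference at -0.25. The authors' value table gave -0.20, near quantile scaling. These settings are therefore not separate checks.

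**Figure D4:**
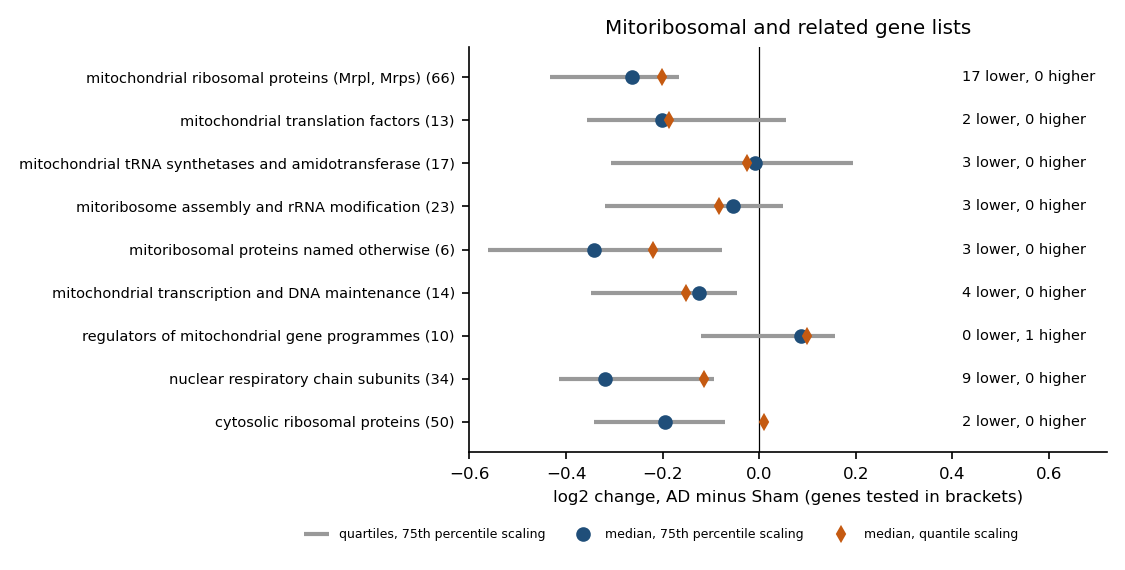
Median log2 change (AD minus Sham) of the mitoribosomal genes and of 8 related lists, with 75th percentile scaling (circles, bars span the quartiles over genes) and quantile scaling (diamonds), and the number of genes limma called in each direction with 75th percentile scaling. The mitoribosomal median stays left of 0 under both scalings, whereas that of cytosolic ribosomal proteins does not.

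Markers of other cell types moved between the groups as well. In bulk tissue, fewer cells of a type and less RNA per cell cannot be told apart. The counts below stand against 8.40% of all probes called lower and 4.15% called higher. With quantile scaling 4 neuronal and 1 excitatory neuron markers were lower, and 5 oligodendrocyte markers higher. With normexp and the 75th percentile 4 neuronal markers were lower and 1 oligodendrocyte marker higher. Of 11 general neuronal markers 6 were lower and 0 higher, with a median log2 change of -0.41, and their summed level was 89.8 to 99.6 times the 75th percentile signal in AD and 117 to 138 in Sham. Elavl4 (-0.73 ± 0.10) and Syt1 (-0.64 ± 0.08) were among them, whereas Snap25 had -0.14 ± 0.08. Of 8 markers of hippocampal excitatory neurons 2 were lower, with a median of 0.11 and sums of 21.4 to 24.4 in AD and 26.8 to 28.3 in Sham. Fibcd1 alone accounted for 9.06 to 11.6 in AD and 14.5 to 18.5 in Sham, and the sum of the other 7 was 12.3 to 12.7 in AD and 9.84 to 12.4 in Sham. Of 9 oligodendrocyte markers 5 were higher, Cldn11, Myrf, Mobp, Cnp and Ermn, with a median of 0.53, and their sums were 96.3 to 115 in AD and 108 to 158 in Sham. Most of that sum was Mbp (-0.33 ± 0.21, not called), and without it the sums did not overlap, at 25.7 to 27.8 in AD and 21.2 to 24.3 in Sham. Limma called 0 of 8 astrocyte and 0 of 8 microglial markers, with 1 and 0 at an unadjusted p under 0.05. With quantile scaling 1 astrocyte marker, S100b, was higher (limma adjusted p = 0.0446). The astrocyte median was -0.22 with 75th percentile scaling and 0.05 with quantile scaling. Astrocyte sums were 195 to 232 in AD and 221 to 264 in Sham, and microglial sums 14.8 to 19.1 and 16.1 to 18.9. Of 6 endothelial markers 1 was higher, Cldn5 (0.42 ± 0.09), with sums of 12.5 to 15.6 in AD and 6.39 to 13.5 in Sham.

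Tissues that a dissection can include varied from array to array. Choroid plexus markers summed to 80.8 to 135 in AD and 27.1 to 102 in Sham, with a median log2 change of 2.27 over 7 genes that Ttr dominates in the sum, 0 of them called by limma and 4 at an unadjusted p under 0.05. Kcnj13, one of them, was at 0.95, -2.33 and 2.05 in AD and -4.59, -3.20 and -2.86 in Sham, so that AD replicates 1 and 3 stood far above the Sham arrays and AD replicate 2 only slightly. Skeletal muscle markers summed to 2.20 to 5.89 in AD and 1.03 to 1.77 in Sham, with 0 of 8 called and 6 at an unadjusted p under 0.05. Among those 6, Tnnt3 and Myh4 were well above background on only 3 of 6 arrays, the fewest the filter allows. Their levels ran from -5.39 to -0.85 in AD and from -8.24 to -6.24 in Sham. They may therefore have been tested only because they were high in AD, and their p-values are no evidence of a difference. Erythrocyte markers summed to 6.46 to 13.1 in AD and 11.4 to 67.8 in Sham, with 0 of 4 called and 1 at an unadjusted p under 0.05. Besides Tnnt3 and Myh4, Myl1 was well above background on 4 of 6 arrays, and Kl, Slc4a5 and Ckm on 5. The other tested markers of the cell types and tissues described here were so on all 6 arrays. The part of these cell types and tissues in the mitoribosomal result was not tested.

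**Figure D5:**
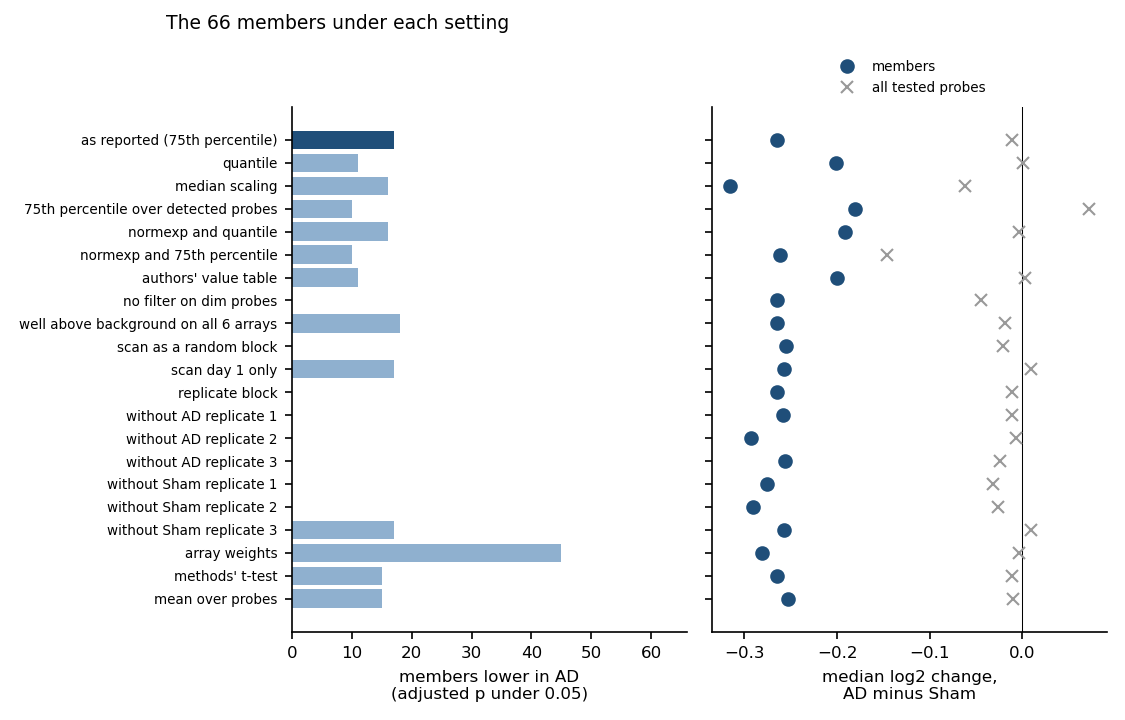
Number of the 66 mitoribosomal genes called lower in AD (left, bars from 0) and the median log2 change of the members and of all tested probes (right) under the reported setting and each alternative that refits the probes. The bars run from 0 to 45, while the member median stays between -0.32 and -0.18 and left of the median of all probes. Some settings leave each member's change as it is or shift all changes alike, so they are not separate checks.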

How the data were processed

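RNA of 3 AD and 3 Sham hippocampal samples was hybridised to Agilent rat arrays, 1 array per sample, with groups as in the labels. The authors deposited scanner output whose values are background-subtracted intensity on a linear scale (Agilent Feature Extraction 11.0.1.1), and a table of processed log2 values, whose scaling is not stated and whose columns all had a median of 6.57. In that table the columns of AD replicates 2 and 3 matched each other's scanner values, which leaves the group comparison unaffected. Controls and spots flagged as outliers (between 400 and 559 on an array) were dropped, spots of a probe were averaged, and log2 intensity minus the array's 75th percentile was used. Probes well above background on at least 3 of 6 arrays, and with an unflagged value on all 6, were tested, 22766 in all. AD and Sham were compared in limma 3.58.1 (lmFit, eBayes, R 4.3.3) by two-sided tests, and p-values were adjusted over all tested probes after Benjamini and Hochberg. The methods' t-test, other scalings, filters, blocks and single arrays left out were alternatives. Probe accessions were matched without version to RefSeq symbols (assembly GRCr8), which named 18005 of 30367 probes. With no mean signal column among the files, normexp (offset 50) used the median spot signal and median background. The number of arrays limits the precision.

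Members and lists were chosen with earlier results of these data known. The genes named are the called members, the 4 members with the most negative and the 4 with the most positive change, those whose call differed between scalings, members with known roles whatever their values (of which Mrpl11 was not matched), and up to 3 called genes per related list. Others named as markers, neighbours or examples were chosen after their values were seen. The fit was tested on simulated data.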

Additional observations from a re-analysis of the deposited data

How the results depend on the processing

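The median log2 change of the members, -0.26 as reported, was negative under all 20 alternatives that refit the probes. It was -0.20 with quantile scaling, -0.18 with the percentile over detected probes, -0.19 with normexp and quantile scaling and -0.20 in the authors' value table, and -0.29 to -0.26 without 1 replicate. The methods' t-test and the filters on dim probes leave each member's change as it is. Median scaling and the percentile over detected probes shift all changes alike. Since all refits also draw on the same arrays, the constant sign is no independent support. The 17 calls became 11 with quantile scaling or the authors' value table and 10 with the percentile over detected probes or with normexp and the 75th percentile. They became 0 with no filter on dim probes (32 members at an unadjusted p under 0.05) and 0 with scan as a random block (20 at an unadjusted p under 0.05, scan correlation 0.49). Array weights gave 45 lower and 2 higher, in a fit that did not fully converge and that called many more of all probes too. With quantile scaling 6.87% of all probes were lower, against 8.40% as reported. The member counts are to be read beside the counts over all probes, given for several settings in the next paragraph. Leaving out 1 replicate gave 0 to 17, with 17 only without Sham replicate 3, which is also the comparison within the first scan day. No member reached a fold of 2, so the study's thresholds gave 0 with limma and 0 with the methods' t-test. The methods' t-test after Benjamini-Hochberg adjustment called 15 members.

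Of all tested probes limma called 2857, of which 33.1% were higher in AD. The count was 1766 with normexp and the 75th percentile (17.4% higher), 352 with no filter, 4470 within the first scan day (44.7% higher), 9870 with array weights (46.1% higher), 1848 with the methods' t-test and 0 with scan as a random block (3668 at an unadjusted p under 0.05). Leaving out 1 replicate gave 0 to 4470, and the study's thresholds gave 512 with limma and 327 with the methods' t-test. The share higher was 53.2% with the percentile over detected probes. With the replicate number as a replicate block, limma called 0 members (28 at an unadjusted p under 0.05) and 0 probes. The numbers share only a label, since deviations of same-numbered arrays correlated at 0.03, 0.07 and 0.14. Over the 380 refits of 19 named members, the direction never changed, 193 kept their side of the threshold, 183 fell out of it and 4 passed it newly. Since 17 of the 19 were the called members and every refit draws on the same arrays, the constant direction is no independent support. Over all 66 members, 59 changes were negative as reported and 56 with quantile scaling.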
